A study of Mus musculus with 6 samples.

Results

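The protein part of the cytosolic ribosome is encoded by the Rpl genes for the large subunit and the Rps genes for the small subunit. Rows of an expression table of embryonic mouse hearts were taken by symbol: Rpl or Rps followed by digits and at most 1 letter or an l, plus Rpsa, Rplp0, Rplp1 and Rplp2. Pseudogene names ending in -ps and the Rps6k kinases were left out. Of 38918 rows, 80 matched, and 77 of these averaged 1 FPKM or more (fragments per unit of transcript length and of library size) over the 6 libraries, 31 for the small subunit and 46 for the large subunit. They are 0.593% of the 12988 genes at or above that level. The 3 rows below it were Rpl3l, Rpl39l and Rpl10l.

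RNA was sequenced from whole hearts at embryonic day 11.5 on a C57/BL6 background. The 3 control libraries came from littermates labelled Tie2 flox/wild-type, with 1 floxed allele and no Cre in the label, and the 3 conditional knockout libraries from Nfatc1Cre:Tie2 flox/flox embryos. Tie2, listed as Tek, is a receptor tyrosine kinase of endothelial cells, and Nfatc1 is a gene of the endocardium, so the deletion is aimed at a minor cell type of the organ while the RNA comes from all of it. Per the series text, the RNA of 18 hearts per genotype was pooled and then split into 3 replicates, so a p-value here covers no more than the spread of these portions, which may be technical.

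Each ribosome joins a small subunit, which reads the mRNA, to a large subunit, which forms the peptide bond and holds the exit tunnel. Most ribosomal proteins are needed in equal numbers, their genes are active in nearly every cell, and their short mRNAs usually begin with a run of pyrimidines, the TOP sequence, through which growth signals control their translation. Loss of 1 copy of several of these genes causes Diamond-Blackfan anaemia, in which red cell formation fails and heart malformations can occur.

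Start sites were looked at first, because the pyrimidine run and the initiator sequence are shared features of these genes that the symbol rule did not use. RefSeq promoters (GRCm38.p6, 250 bases before to 50 after the annotated start) were matched for 60 of the 80 symbols and 57 of the 77 rows. The 4 most abundant members with CTTTCC on the coding strand near the start are shown. Rps24 is the most abundant member with neither this motif nor the ETS motif (CCGGAAG) in its matched RefSeq promoter. It is shown too, as is the heart and skeletal muscle paralog Rpl3l. Each line runs 5′ to 3′ from 100 bases before to 20 bases after the start, and capitals mark the motifs CTTTCC (pyrimidine run), the ETS core and the YY1 core on either strand. Rpl4 lies at chr9:64173287-64173406 (plus strand), Rpl28 at chr7:4792865-4792984 (plus), Rpl13a at chr7:45128726-45128845 (minus), Rps27 at chr3:90213629-90213748 (minus), Rps24 at chr14:24490578-24490697 (plus) and Rpl3l at chr17:24727726-24727845 (plus). In GENCODE release M21 the Rps24 gene spans chr14:24487125-24496959, so its line lies inside the gene and not at its annotated start. The missing motifs of Rps24 therefore hold for this stretch only, and which start is used was not tested.
Rpl4: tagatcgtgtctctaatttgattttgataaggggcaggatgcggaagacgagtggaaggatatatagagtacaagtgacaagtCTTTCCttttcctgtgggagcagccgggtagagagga
Rpl28: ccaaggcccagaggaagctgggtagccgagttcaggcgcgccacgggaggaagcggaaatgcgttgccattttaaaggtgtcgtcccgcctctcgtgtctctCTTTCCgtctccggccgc
Rpl13a: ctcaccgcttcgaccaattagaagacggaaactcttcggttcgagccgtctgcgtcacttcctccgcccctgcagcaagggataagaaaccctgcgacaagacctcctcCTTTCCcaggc
Rps27: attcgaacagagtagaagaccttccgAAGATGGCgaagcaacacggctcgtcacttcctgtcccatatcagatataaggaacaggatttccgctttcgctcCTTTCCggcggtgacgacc
Rps24: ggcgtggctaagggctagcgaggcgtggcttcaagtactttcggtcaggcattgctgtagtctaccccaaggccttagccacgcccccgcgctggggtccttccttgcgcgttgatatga
Rpl3l: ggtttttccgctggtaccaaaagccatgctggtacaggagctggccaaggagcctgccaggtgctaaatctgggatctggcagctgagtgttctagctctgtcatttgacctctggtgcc

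In Rpl4, Rpl28, Rpl13a and Rps27 the capitals of CTTTCC fall toward the end of the line, as the choice of these genes asks. Rps27 also holds AAGATGGC, the reverse complement of GCCATCTT, which is the core bound by the factor YY1. On the coding strand and in the last 100 bases of the promoter, CTTTCC was found in 16 of the 57 member promoters (28.1%) and in 4.67% of 27025 RefSeq promoters. On either strand of the whole promoter it was found in 47.4% of the members and 26.3% of all. CCGGAAG, a core of the sites bound by ETS family factors, was found on either strand in 23 member promoters (40.4%) and in 9.12% of all. It can share its first 2 bases with the end of CTTTCC. GCCATCTT was found in 7.02% of the members and 2.88% of all, and the TATA box, searched as TATAAA, in 8.77% and 14.2%. These matches are letters in a window and were not tested as sites.

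Apart from the row named Rpl24 (mean 4.42 FPKM, described below), the members were abundant transcripts of the heart. Their means ran from 129 FPKM for Rps27l to 2521 FPKM for Rps24. Of the 77, 74 averaged 200 FPKM or more and 18 averaged 1000 FPKM or more. They held 39 of the 100 highest places in the table and 70 of the 200 highest, though none of the 10 highest. The median of their means was 692 FPKM, against 10.7 FPKM for all genes tested. The summed FPKM of the members was 70571, 60750 and 57497 in control replicates 1, 2 and 3 and 58695, 66709 and 56181 in conditional knockout replicates 1, 2 and 3. The order of the members by level was largely kept, with Spearman correlations of 0.878 to 0.986 over the 15 pairs of libraries (a description across 77 genes, which share length and base composition between libraries).

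**Figure D1:**
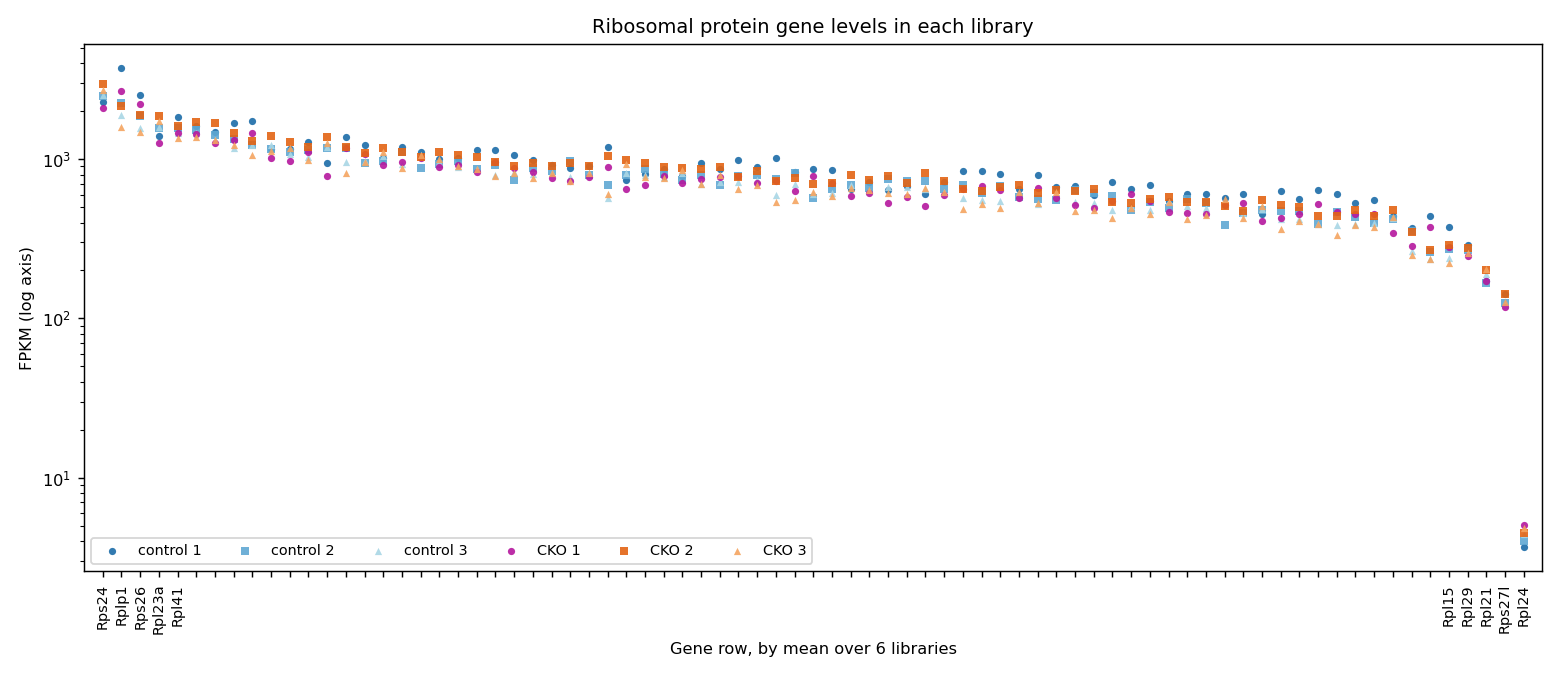
FPKM on a log axis for each of the 77 ribosomal protein rows, ordered by mean, with 1 point per library and the 5 highest and 5 lowest rows named (circles, squares and triangles are replicates 1, 2 and 3; CKO, conditional knockout). All rows but Rps27l, Rpl21 and the row named Rpl24 have means above 200 FPKM, and the points of a gene overlap between genotypes except in the row named Rpl24.

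The most abundant member was Rps24, a small subunit protein mutated in Diamond-Blackfan anaemia. Its level was 2283, 2498 and 2534 FPKM in control replicates 1, 2 and 3 and 2094, 2983 and 2731 FPKM in the conditional knockout replicates. The replicate 1 library was the lowest of its group on both sides. Rplp1, an acidic protein of the stalk that recruits translation factors, had 3739, 2261 and 1899 FPKM in the controls and 2673, 2156 and 1588 FPKM in the conditional knockouts. Here the replicate 1 library was the highest of its group and the replicate 3 library the lowest. Rps26, which lies near the mRNA exit site, had 2527, 1861 and 1570 FPKM in the controls and 2206, 1884 and 1480 FPKM in the conditional knockouts, in the same order. Rpl23a, near the exit of the peptide tunnel, and Rpl41, the shortest ribosomal protein, followed with means of 1572 and 1552 FPKM.

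At the lower end, the row named Rpl24 stood apart. It was listed at 3.66, 3.98 and 4.43 FPKM in the controls and 5.04, 4.52 and 4.86 FPKM in the conditional knockouts, far under the next lowest member, Rps27l, with a mean of 129 FPKM. The identifier of that row belongs to Zbtb11, a zinc finger gene at chr16:55973883-56008913 (GRCm38), in GENCODE release M21. Rpl24 itself lies beside it at chr16:55966275-55971435, and its identifier carries the name RPL24, in capitals, in the table. The RPL24 row, which the symbol rule does not take, was at 605, 395 and 424 FPKM in the controls and 462, 429 and 367 FPKM in the conditional knockouts, which is within the range of the other members. Statements on all 77 rows therefore include 1 row that by its identifier is no ribosomal protein gene. Of the other low members, Rpl21 had a mean of 184 FPKM, Rpl29 of 266 FPKM and Rpl15 of 280 FPKM.

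The deleted gene fell as labelled. Tek was at 22.4, 25.7 and 16.6 FPKM in the controls and 3.38, 3.13 and 3.13 FPKM in the conditional knockouts, a log2 fold change of -2.40 ± 0.15 (SE, n = 3 per group, limma adjusted p = 0.00131). Of 7 markers of endothelium and endocardium, 6 lay lower in every conditional knockout library, Emcn did not, and Npr3 and Plvap passed the threshold. Over all genes tested, 8.17% lay wholly lower and 0.123% were called lower. All 7 markers together summed to 261 to 290 FPKM in the controls and 167 to 198 FPKM in the conditional knockouts. The 6 cardiomyocyte markers summed to 10703 to 11648 FPKM in the controls and 7477 to 11071 FPKM in the conditional knockouts, with the lowest sum in replicate 1. Hbb-y and Hba-x, embryonic globins, were listed at 0 in all 3 controls, and Hbb-y was at 17557 to 23965 FPKM in the conditional knockouts. An exact 0 in such a table can be a failed estimate. The other 7 erythroid markers overlapped between the groups and none passed the test, 6 of them with a log2 fold change below 0, among them the embryonic globin Hbb-bh1 (-0.12). Summed liver markers (Afp, Alb and 3 others) ranged from 22.2 to 87.5 FPKM in the controls and were 5.59, 237 and 2.66 FPKM in the conditional knockouts, although the libraries of a genotype are described as portions of 1 pool. Macrophage markers summed to at most 7.26 FPKM and skeletal muscle markers to at most 6.42 FPKM in any library.

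No ribosomal protein row passed the genotype test. With limma on log2(FPKM + 1), 0 of 77 had an adjusted p under 0.05 in either direction, where 0.123% of the 12988 genes were called lower and 0.0539% higher. At an unadjusted p under 0.05 there were also 0 of 77, against 6.68% of all genes. In 12 of the 17 alternative fits the members had none at that level, and in the other 5 they had 1 to 4. The lowest adjusted p among the members was 0.773, for the row named Rpl24. The groups overlapped in every member but that one, while over all genes the conditional knockouts lay wholly lower in 8.17% and wholly higher in 5.23%. In bulk RNA, fewer cells of a type and less RNA per cell cannot be told apart.

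Log2 fold changes (conditional knockout minus control) lay in a narrow band. They ran from -0.29 for Rpl27a to 0.12 for Rpl21, with the row named Rpl24 at 0.21, and their SE ran from 0.10 to 0.31. A total of 55 rows lay below 0 and 22 above it, with a median of -0.056. The median was -0.013 over all genes tested and -0.074 over the 684 other genes averaging 100 FPKM or more, so the members lay between the 2. With replicates 2 and 3 only, the members' median was 0.053, with 27 rows below 0 and 50 above. Without control replicate 1 it was 0.033 (28 below, 49 above) and without conditional knockout replicate 3 it was 0.0024 (38 below, 39 above). Rescaling to the summed FPKM of all genes but the globins gave -0.10 (63 below, 14 above), where the median of all genes tested moved to -0.054. Rescaling to the members' own sum, which sets them near 0 by construction, left 39 rows below 0 and 38 above.

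**Figure D2:**
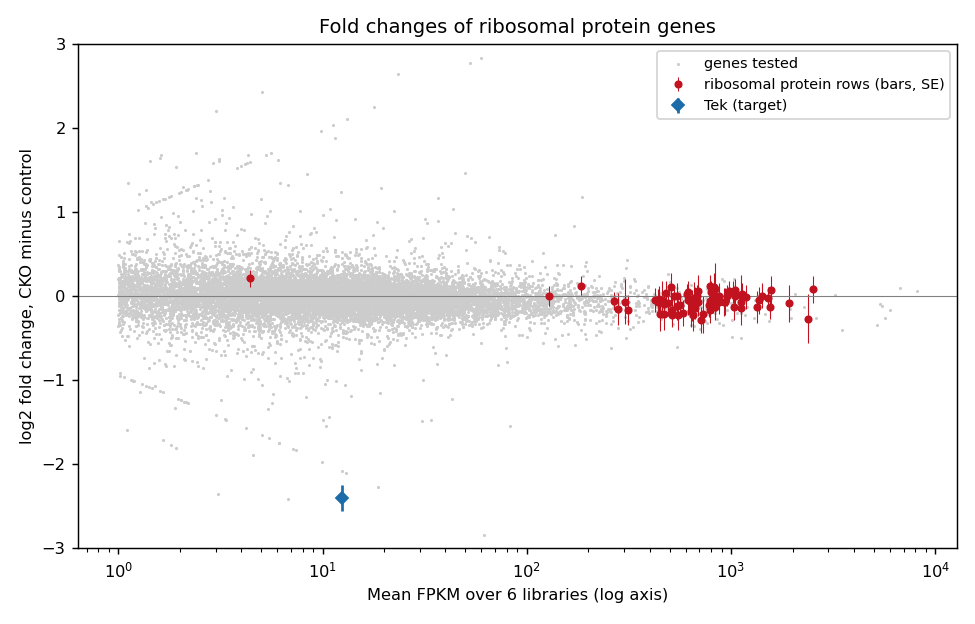
Log2 fold change (conditional knockout minus control) against mean FPKM on a log axis for the genes tested (grey), the ribosomal protein rows (red, bars are SE) and Tek (blue diamond). The red points lie between -0.29 and 0.21, and 11 grey points fall outside the axis limits of -3 and 3.

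Rpl27a, a large subunit protein whose mutation gives developmental defects in mice, was at 835, 814 and 703 FPKM in the controls and 629, 760 and 552 FPKM in the conditional knockouts. The groups overlapped through conditional knockout replicate 2, and the log2 fold change of -0.29 ± 0.15 (SE) had a limma adjusted p of 0.784. Rps14, the small subunit gene lost in the 5q- syndrome, was at 601, 561 and 505 FPKM in the controls and 462, 542 and 424 FPKM in the conditional knockouts (log2 fold change -0.23 ± 0.14, limma adjusted p = 0.807). Again the replicate 2 conditional knockout library lay among the controls. Rpl8 and Rps13 had log2 fold changes of -0.22 each. On the other side, Rps25, which some viral mRNAs need for internal initiation, was at 861, 692 and 722 FPKM in the controls and 774, 891 and 797 FPKM in the conditional knockouts (0.12 ± 0.13). Rpl39 had 0.11 and Rpl35, a protein at the tunnel exit, had 0.10.

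By subunit, 25 of 31 small subunit rows and 30 of 46 large subunit rows lay below 0, with medians of -0.052 and -0.059, and none passed the test. Among the 3 stalk proteins the values were -0.27 for Rplp1, -0.14 for Rplp2 and 0.087 for Rplp0, the base of the stalk. Rpl5 and Rpl11, which carry the 5S rRNA and can bind the p53 regulator Mdm2 when ribosome assembly fails, had 0.059 and -0.056. Rpl5 was at 873, 567 and 607 FPKM in the controls and 783, 697 and 623 FPKM in the conditional knockouts, with replicate 1 highest in both groups. Rps6, the substrate of the S6 kinases, was at 944, 796 and 695 FPKM in the controls and 753, 866 and 701 FPKM in the conditional knockouts (-0.064 ± 0.15). Rps27a, made as a fusion with ubiquitin, had 0.0037, and Rpl38, which has a role in Hox mRNA translation, had -0.095. The 18 members linked to Diamond-Blackfan anaemia had a median of -0.049, with 13 below 0. The 4 X-linked members, Rpl10, Rpl36a, Rpl39 and Rps4x, had 2 values on each side of 0.

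The members varied from library to library within a genotype. The median log2 deviation of a member from its own 6-library mean was 0.20, -0.0054 and -0.084 in control replicates 1, 2 and 3 and -0.077, 0.11 and -0.14 in conditional knockout replicates 1, 2 and 3. Over all genes tested the same medians were all within 0.0224 of 0. Over the 684 other genes of at least 100 FPKM they were 0.15, 0.017 and -0.041 in control replicates 1, 2 and 3. In the conditional knockout replicates they were -0.093, 0.032 and -0.046, so part of the shift was shared with other abundant genes. Control replicate 1 held the highest value of 46 members and conditional knockout replicate 2 that of 27, whereas conditional knockout replicate 3 held the lowest value of 35 and conditional knockout replicate 1 that of 26. Summed liver markers were also highest in these same libraries, 87.5 FPKM in control replicate 1 and 237 FPKM in conditional knockout replicate 2. Their part in the members' levels was not tested.

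**Figure D3:**
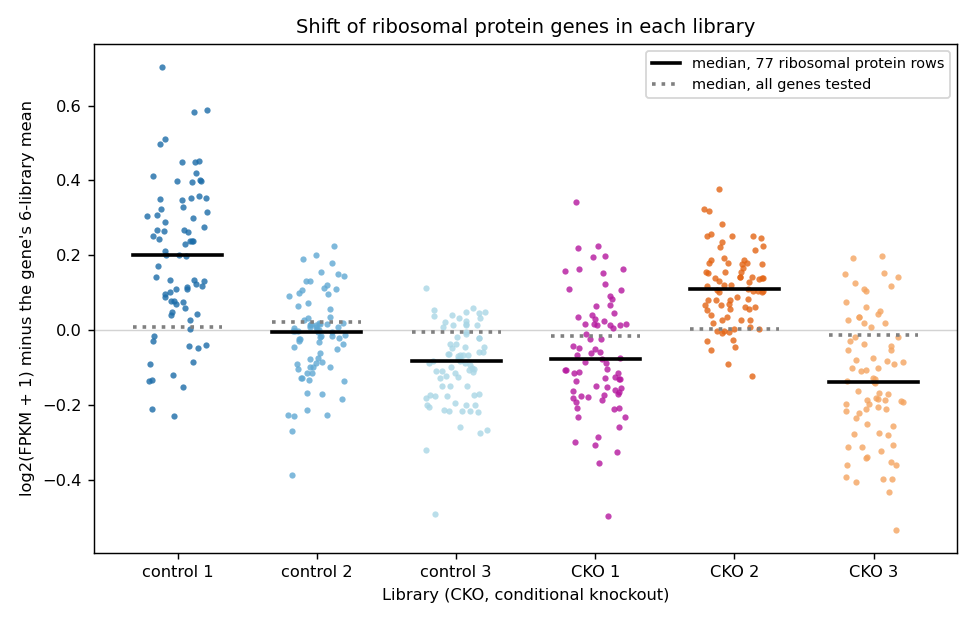
Log2(FPKM + 1) of each ribosomal protein row minus its mean over 6 libraries, by library, with the median of the rows (black) and of all genes tested (grey dots). The black lines run from -0.14 in conditional knockout replicate 3 to 0.20 in control replicate 1, while the grey lines stay near 0. Other genes of at least 100 FPKM, not drawn, had a median of 0.15 in control replicate 1.

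As a share of all FPKM in a library, the members made up 13.2%, 12.1% and 11.9% in the controls and 11.05%, 11.5% and 10.2% in the conditional knockouts, groups that do not overlap. Globin genes take up part of that total, 9435 to 14187 FPKM in the controls and 36513 to 56014 FPKM in the conditional knockouts, a gap that rests on Hbb-y and Hba-x, listed at 0 in every control. Without these 2 rows in the total, the members' shares were 13.2%, 12.1% and 11.9% against 11.7%, 12.4% and 10.9%, and the groups overlapped. With all globins left out, they were 13.6%, 12.5% and 12.2% against 11.9%, 12.7% and 11.1%. The mean of the summed FPKM was 62939 ± 6807 in the controls and 60528 ± 5498 in the conditional knockouts (SD, n = 3 each), a difference within the spread of either group.

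Around these shifts, members differed in how steady they were. The SD of log2(FPKM + 1) over the 6 libraries had a median of 0.175 over the members, against 0.172 for all genes tested and 0.179 for the other genes of at least 100 FPKM. Among the steadiest members were Rpl29 (0.082), Rpl26 (0.094), Rpl7 (0.095) and Rpl9 (0.10). Rpl29, a heparin-binding protein in its free form, was at 289, 269 and 257 FPKM in the controls and 247, 276 and 258 FPKM in the conditional knockouts. At the other end were Rplp0 (0.44), Rplp1 (0.43), Rpl37 (0.38), Rpsa (0.31) and Rpl13a (0.31). Rplp0 was at 1200, 684 and 569 FPKM in the controls and 893, 1040 and 603 FPKM in the conditional knockouts, a range of 2.11 times. Rpsa, also known as the laminin receptor precursor, was at 1013, 749 and 594 FPKM in the controls and 729, 731 and 540 FPKM in the conditional knockouts, so both stalk proteins Rplp0 and Rplp1, and Rpsa, were lowest in a replicate 3 library.

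For some members the replicates stood in a like order in both groups. Rpl37 was at 443, 262 and 236 FPKM in the controls and 374, 270 and 235 FPKM in the conditional knockouts, the same order in both groups. Rpl13a, which is released from the ribosome to silence some inflammatory mRNAs, was at 941, 1176 and 1193 FPKM in the controls and 782, 1381 and 1267 FPKM in the conditional knockouts, low in replicate 1 on both sides. The difference of replicate 1 from the mean of replicates 2 and 3, on the log2 scale, was 0.83 in the controls and 0.57 in the conditional knockouts for Rpl37. It was 0.85 and 0.53 for Rplp1, 0.71 and 0.33 for Rps3, and -0.33 and -0.76 for Rpl13a. Rpl12 (-0.19 and -0.52), Rpl35 (-0.13 and -0.57) and Rpl23a (-0.17 and -0.50) also lay low in replicate 1 of both groups.

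Across the 77 rows, the replicate 1 difference in the controls and that in the conditional knockouts had a Pearson correlation of 0.89 and a Spearman correlation of 0.892. The correlation is one of relative order: the difference had the same sign in both groups for 41 of the 77 members (53.2%), against 60.5% of all genes tested and 61.8% of the other genes of at least 100 FPKM, and the members' median lay above 0 in replicate 1 of the controls and below 0 in replicate 1 of the conditional knockouts. The Pearson and Spearman correlations were 0.643 and 0.695 over the 684 other genes of at least 100 FPKM, and 0.189 and 0.312 over all 12988 genes tested. These are descriptions across genes, which are not independent, and low genes carry more counting noise. The replicate 3 library was the lowest of both groups for 39 members (50.6%), for 27.3% of the other genes of at least 100 FPKM and for 17.7% of all genes. The replicate 1 library was the highest of both groups for 16 of 77 members and for 2671 of the 12988 genes, a like share. It was the lowest of both for 8 members and for 2840 of the genes, a larger share than among the members. Of a member's variance over the libraries, genotype took a median of 6.35%, replicate number 62.7% and the rest 26.0%. Those shares were 14.9%, 47.6% and 22.6% over all genes tested. They were 13.5%, 53.2% and 20.9% over the other genes of at least 100 FPKM. Genotype has fewer levels than replicate number, so without any effect its share would still be the smaller. What the replicate number stands for beyond a portion of the pool is not given in the labels.

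**Figure D4:**
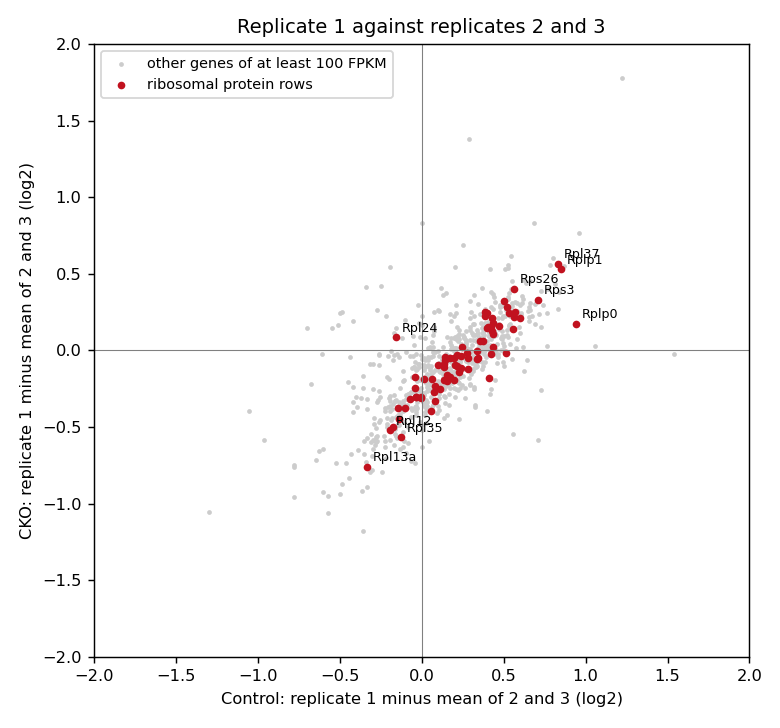
Replicate 1 minus the mean of replicates 2 and 3, in log2 units, in the controls (horizontal) and the conditional knockouts (vertical) for ribosomal protein rows (red) and other genes averaging 100 FPKM or more (grey; 6 lie outside the axes). The red points run along a diagonal from Rpl13a at the lower left to Rpl37 and Rplp1 at the upper right.

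Features of the transcripts were set beside these values, for the 76 members without the row named Rpl24. Their mature transcripts had a median length of 705 bases, against 2936 bases for all genes tested with a transcript in GENCODE M21, and a median GC content of 52.2% against 50.5%. GC content and the genotype log2 fold change had a Spearman correlation of -0.509 across the members. It was -0.446 across 11908 tested genes and -0.608 across 663 other genes of at least 100 FPKM, so the slope was shared with other transcripts. In single libraries, the correlation of GC content with the deviation from the mean was 0.529 in control replicate 2 and -0.347 in conditional knockout replicate 3 for the members, and 0.518 and -0.478 for all genes. In the other 4 libraries it lay between -0.121 and 0.118 for the members and between -0.115 and 0.093 for all genes. The part of GC content in the fold changes was not tested. Transcript length had correlations of 0.161 with the fold change and 0.173 with the spread over libraries. In 29 members, the gene body holds 1 or more of 56 small nucleolar RNA genes, and these members had a median level of 716 FPKM against 678 FPKM for the other 47.

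Near copies affect how reads can be assigned. A median of 56.5% of the 50-base stretches of a member's transcript also occurred in transcripts of other genes, from 0% to 98.6%. The top value belongs to Rps27, whose transcript shares a run of 341 bases with the row Gm9846 (Rps27rt in GENCODE M21). Rps27 was at 1104, 874 and 1058 FPKM in the controls and 1017, 1036 and 1067 FPKM in the conditional knockouts, and the ratio to Gm9846 was between 0.983 and 1.21 in every library. The split between these rows is uncertain, as the sources used here do not give how shared reads were treated.

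Among the paralog pairs, the tissue-restricted copies were near 0 in the embryonic heart. Rpl3, which helps shape the peptidyl transferase centre (chr15:80077791-80091868, GRCm38), was at 635, 470 and 419 FPKM in the controls and 429, 512 and 367 FPKM in the conditional knockouts. Rpl3l (chr17:24727820-24736143), which replaces it in mature heart and skeletal muscle, was at 0.444, 0.361 and 0.534 FPKM in the controls and 0.377, 0.247 and 0.447 FPKM in the conditional knockouts. The mean of Rpl3 was 1175 times that of Rpl3l, with 785 to 2075 times in single libraries, and both genotypes overlapped for each gene. Rpl39l, a paralog known from testis, was at 0.0592 to 0.220 FPKM in the controls and 0.106 to 0.474 FPKM in the conditional knockouts, against a mean of 511 FPKM for Rpl39. Rpl10l, a testis copy of Rpl10, was listed at 0 in all 6 libraries. Per library depth is unknown, so no counting error can be given for levels this low.

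The other pairs were both present. Rps27l, a close copy of Rps27, was at 141, 125 and 122 FPKM in the controls and 118, 142 and 127 FPKM in the conditional knockouts, and Rps27 stood 6.999 to 8.71 times higher. Rpl22l1, which can stand in for Rpl22, was at 157, 94.6 and 106 FPKM in the controls and 113, 120 and 116 FPKM in the conditional knockouts. Rpl22 itself was at 451, 477 and 490 FPKM and at 408, 556 and 505 FPKM, so control replicate 1 was high for the copy and lowest of its group for Rpl22. The ratio of the pair was 2.88 in that library and 3.61 to 5.05 in the other 5. Rpl36a was 2.68 to 3.62 times as high as Rpl36al, and Rpl7 was 25.7 to 28.7 times as high as Rpl7l1. The row Rps4y2, whose identifier is Rps4l, a transcribed processed pseudogene, in GENCODE M21, was at 109, 86.4 and 64.6 FPKM in the controls and 71.4, 67.4 and 57.7 FPKM in the conditional knockouts, and Rps4x was 10.998 to 16.8 times as high. Apart from Rps27 and Gm9846, no pair shared a 50-base stretch, and the longest shared runs were 10 to 38 bases.

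**Figure D5:**
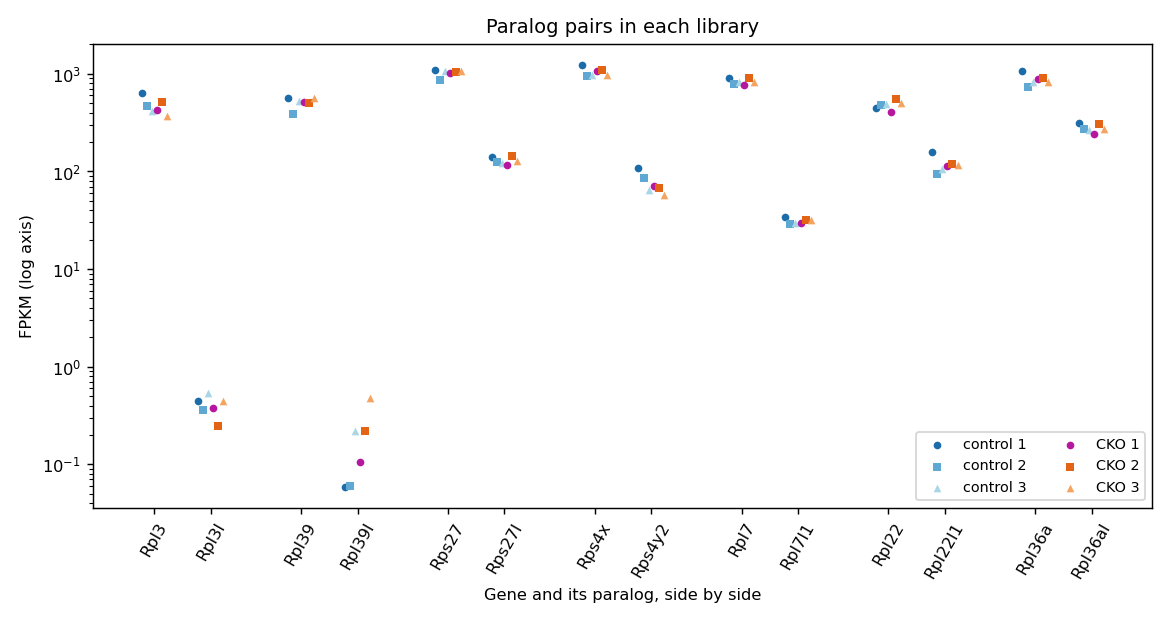
FPKM on a log axis for 7 ribosomal protein genes and a paralog of each, 1 point per library (CKO, conditional knockout). Rpl3l and Rpl39l lie below 1 FPKM in every library, while the other copies lie between 28.7 and 311 FPKM.

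Pseudogene rows with -ps names, which the rule leaves out, numbered 222, of which 84 were at 0 in every library and 28 were tested. They summed to 276, 274 and 139 FPKM in the controls and 208, 199 and 137 FPKM in the conditional knockouts, low in replicate 3 of both groups. None passed the test, 3 had an unadjusted p under 0.05, and 26 of the 28 lay below 0, with a median log2 fold change of -0.44. Over all genes tested, 6.68% had an unadjusted p under 0.05 and 6916 of 12988 lay below 0. The SD of log2(FPKM + 1) over the 6 libraries had a median of 0.606 in these 28 rows, against 0.172 for all genes tested. Among 147 other processed pseudogenes tested the median log2 fold change was -0.23. Rps6ka2, a kinase that the rule also leaves out, was at 26.6, 25.1 and 22.3 FPKM in the controls and 14.6, 16.7 and 14.9 FPKM in the conditional knockouts, with a log2 fold change of -0.65 ± 0.11 (SE) that did not pass (limma adjusted p = 0.135).

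Other genes of ribosome production and translation were read the same way, and none of these lists had a gene past the threshold. Over all genes tested, 0.123% were called lower and 0.0539% higher. At such shares, lists of this size would hold hardly any called gene, so their absence says little about these lists. Of 76 mitochondrial ribosomal protein genes, whose products form a separate ribosome, 59 lay below 0, with a median of -0.092. Of 38 translation factors, 26 lay below 0 (median -0.058), among them Eef1a1, which delivers aminoacyl-tRNA, at 4756, 5992 and 5797 FPKM in the controls and 3903, 6298 and 5549 FPKM in the conditional knockouts. Like Rps24 and Rpl13a, Eef1a1 was lowest in replicate 1 of both groups. Of 18 other genes with TOP mRNAs, 12 lay below 0 (median -0.074). Of 53 ribosome biogenesis genes, 34 lay above 0 (median 0.065), with Npm1, a nucleolar chaperone, at 828, 823 and 873 FPKM in the controls and 795, 1095 and 1034 FPKM in the conditional knockouts. Of 20 genes of growth signalling to the ribosome, 13 lay below 0 (median -0.070). The median over all genes tested was -0.013.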

How the data were processed

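RNA of whole hearts was measured in 3 control and 3 conditional knockout libraries. The deposited table holds FPKM values made by the authors. The submitters' processing notes name TopHat2 2.0.9, Cufflinks 2.2.1, Cuffdiff and HTSeq, without roles, and mm10. The annotation release, strand setting and handling of shared reads are, in the sources used here, not given. FPKM divides by length and library total and keeps no read counts, so depth is unknown and no counting interval is given. Total FPKM was 481334 to 582261 per library.

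Values were analysed as log2(FPKM + 1) with limma 3.58.1 (R 4.3.3, intensity trend, Benjamini-Hochberg adjustment, threshold 0.05) over genes averaging 1 FPKM or more, after a check on simulated data. Fold changes on that scale understate the change of low genes. Of 38918 identifiers, 37607 were found in GENCODE M21 (GRCm38), which gave positions, transcripts and 50-base stretches. The members and lists were chosen with earlier results of these data known. Genes were named by rule: Tek, the paralogs, the 5 highest and lowest by level, fold change and spread, 8 members with known special roles, and the top gene of each list. A gene that this rule takes is not reported here. Rps3, Rpl12, Rps6ka2 and the row RPL24 were named after their values were seen. Alternatives were pseudocounts, filters, scalings, a replicate block and left-out libraries.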

Additional observations from a re-analysis of the deposited data

How the results depend on the processing

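No member passed the threshold in any of 17 alternative limma fits, and the lowest adjusted p of a member was 0.176, with quantile normalization. Of the 77 rows, 55 changed sign in at least 1 of these fits, and 22 kept it, 18 lower and 4 higher (Rpl23, Rps25, Rpl21 and the row named Rpl24). The filters, the replicate block and the fit without intensity trend leave fold changes as they are, so they could not change a sign. The members' median log2 fold change ran from -0.134 to 0.033 with 1 library left out, and was 0.0531 with replicates 2 and 3 only. It was -0.0012 after scaling to the members' own sum, which sets it near 0 by construction. All of these are smaller in size than the SD of the library medians within a genotype (0.138). That SD is for single libraries, and the spread of a difference between group means was not computed. Tek stayed at -2.39 in the fit of replicates 2 and 3 only but no longer passed (limma adjusted p = 0.0546), where fewer libraries were fitted. Putting the RPL24 row in place of the row named Rpl24, an alternative chosen after seeing the data, gave a median of -0.056.

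A replicate block cannot move a fold change here, because each replicate number occurs once in each group. The members' median thus stayed at -0.0559 and Tek at -2.40 by construction. With the block, again no member was called. The labels do not say whether the numbers pair the samples. Deviations of same-numbered libraries correlated at 0.189, 0.0306 and 0.229 over all genes, and at 0.89, 0.74 and 0.942 across the members. Unlike-numbered libraries ran from -0.235 to 0.0559 over all genes and from -0.818 to 0.167 across the members. The 0.0559 was for control replicate 2 with conditional knockout replicate 3. Deviations were taken from the mean of each group, so values of like and unlike numbers depend on each other. Replicate number still took a median of 47.6% of a gene's variance over all genes tested, against 22.6% left by genotype and replicate number. Pairing was not tested. Over all genes, 16 were called lower, 4 to 9 with 1 library left out, 7 with no filter on low values, 8 with replicates 2 and 3 only and 8 after scaling to the members' sum. Depth is unknown, so a difference between members of low level cannot be set against counting error.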
